A study of Arabidopsis thaliana with 33 samples.

Results

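The genes described here encode LHCII, the major light-harvesting antenna of photosystem II in Arabidopsis. The 9 loci, LHCB1.1 to LHCB1.5, LHCB2.1 to LHCB2.3 and LHCB3, were taken from the 27826 loci of the array by a list of locus numbers, a rule that uses no measured value. LHCB1 is encoded by 5 genes, LHCB2 by 3 genes and LHCB3 by 1 gene. Whole rosettes came from plants raised at 100 μmol m-2 s-1 (LL), of the reference accession Col-0 and of the natural accessions Ts-1 and Ga-0. On day 25 after sowing, part of the plants met 550 μmol m-2 s-1 (HL) from the moment the lights came on. The study reports that a rise in temperature accompanied this increase, so effects of light and of warmth cannot be told apart in these arrays. Every accession was harvested in HL and in LL 1 hr later. Col-0 was also harvested in HL and in LL at 3.5 hr on the same day and at 25 hr, which is 1 hr after the lights came on on day 26, and in LL at -23 hr, on day 24. Each of the 11 groups holds 3 samples, and RNA of each sample came from 3 pooled rosettes on 1 Affymetrix AraGene array, 33 arrays in all. No mutant or transgene is involved, and every group had been raised in LL.

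LHCII binds chlorophyll a and chlorophyll b and passes the absorbed energy to photosystem II. Its subunits LHCB1, LHCB2 and LHCB3 are made in the cytosol, enter the chloroplast and join into trimers in the thylakoid membrane. LHCB1 and LHCB2 can be phosphorylated by the kinase STN7 during state transitions, in which part of the antenna moves to photosystem I, whereas LHCB3 lacks the phosphorylated residue. Plants kept in strong light are known to hold a smaller LHCII antenna than plants in weak light.

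The values are summarized array signals, of which the digits are known but the decimal separator is not. A value of a gene can therefore be compared with another value of the same gene up to a power of 10, and levels of different genes cannot be compared. Each HL group was read at the smallest change from its LL group, and each LL group at the smallest difference from Col-0 LL at 1 hr, which reaches changes up to 3.16-fold in either direction. For LHCB1.4, the only member in the study's supplementary lists of fold-changes, those lists set the power of 10 in 3 of the 5 light comparisons. Its unlisted comparisons were placed closest to its change in Col-0 at 1 hr. Levels are given relative to the geometric mean of the 3 arrays of Col-0 LL at 1 hr, set at 1. A gene was called at an adjusted p below 0.05 in limma, adjusted by Benjamini-Hochberg over all loci, together with a change of more than 1.4-fold. "Rose" and "fell" are used of called changes. In whole rosettes, fewer cells of a type and less RNA per cell cannot be told apart. Levels of different genes have no common scale, so the tissue was not checked by the levels of marker genes, and changes of cell type markers between groups were not tested.

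**Figure D1:**
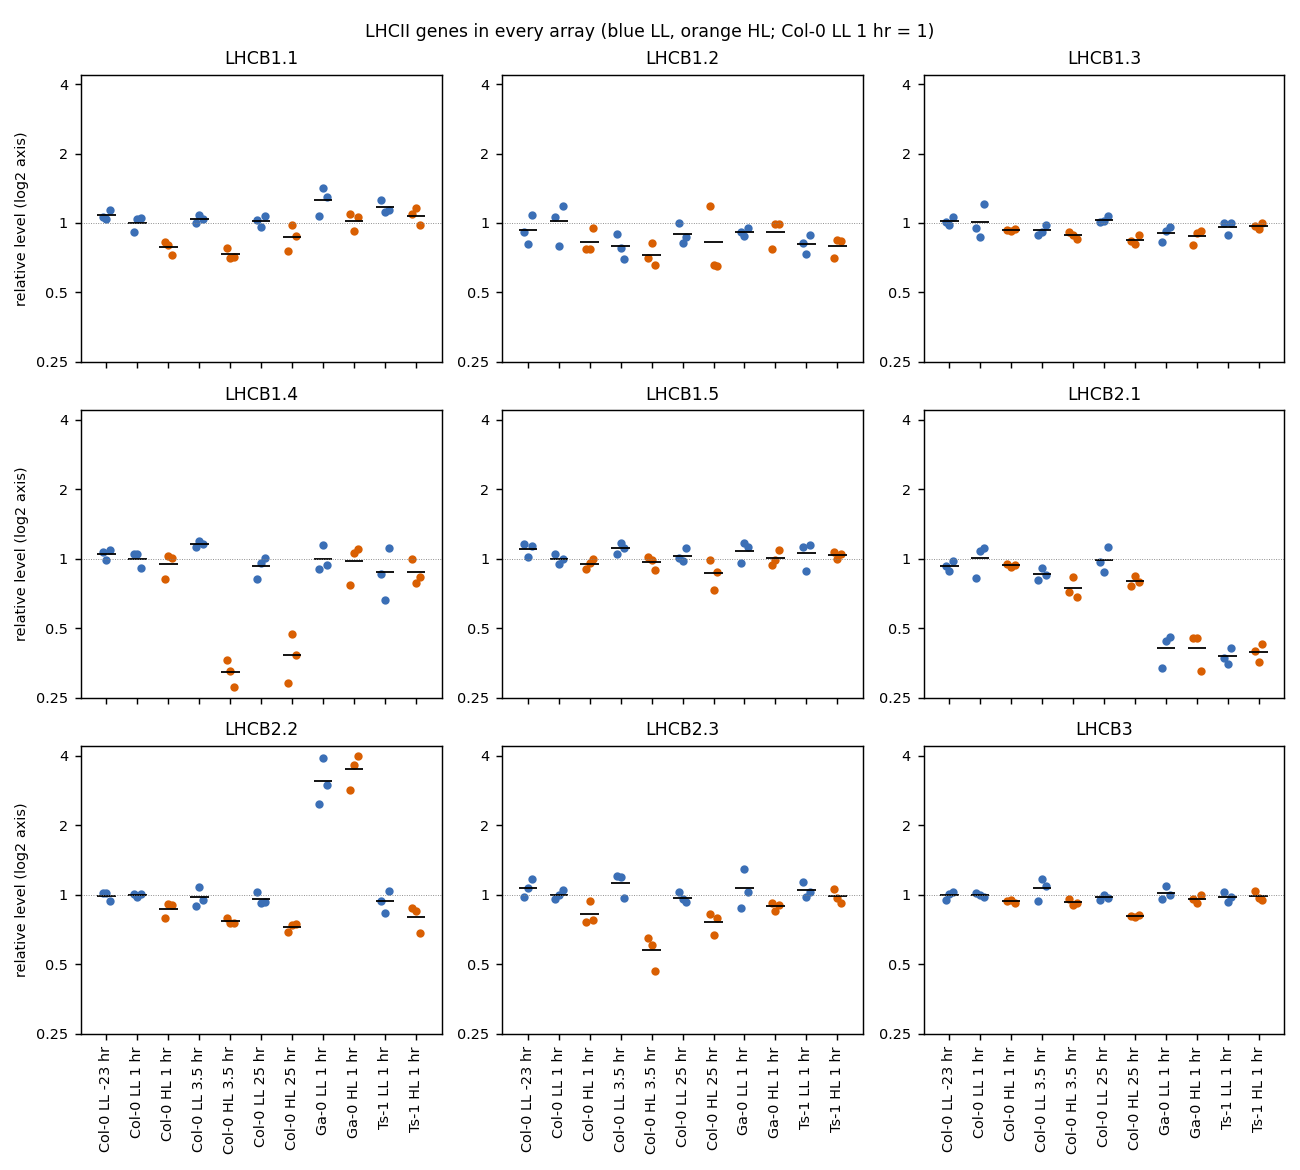
Relative level of each LHCII gene in every array (points; log2 axis, Col-0 LL 1 hr = 1) in the 11 groups, LL in blue and HL in orange, with the mean of each group as a line. LHCB1.4 in Col-0 HL at 3.5 hr and 25 hr lies between 0.279 and 0.473, and LHCB2.1 in Ga-0 and Ts-1 between 0.326 and 0.46; the placing of LHCB2.2 in Ga-0 is ambiguous and could as well be below 1.

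In the Col-0 time course, LHCB1.4 had the largest falls of the 9 LHCII genes, 3.61-fold at 3.5 hr and 2.47-fold at 25 hr. LHCB2.3 fell 1.96-fold and LHCB1.1 fell 1.43-fold at 3.5 hr. At 1 hr, 0 of 9 LHCII genes fell and 0 rose in Col-0, where 0.92% of all loci fell and 1.94% rose. At 3.5 hr, 3 of 9 fell and 0 rose, against 3.78% and 3.94% of all loci. At 25 hr, 1 of 9 fell and 0 rose, against 2.4% and 2.67% of all loci. At an unadjusted p below 0.05 in limma, 2 of the 9 (LHCB1.1 and LHCB2.3) were lower at 1 hr. By the same limit 5 were lower at 3.5 hr and 8 at 25 hr. The share of all loci at this unadjusted limit was not computed, here or below.

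LHCB1 is the most abundant LHCII subunit, and its genes stand in 2 clusters. LHCB1.1 (AT1G29920), LHCB1.2 (AT1G29910) and LHCB1.3 (AT1G29930) are direct neighbours on chromosome 1, and LHCB1.4 (AT2G34430) and LHCB1.5 (AT2G34420) are direct neighbours on chromosome 2. The coding sequences within a cluster are close copies, so probes can match more than 1 of them. How such probes were treated is not given in the sources used here, and the values of LHCB1.1, LHCB1.2 and LHCB1.3 in particular are uncertain as measures of single genes.

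LHCB1.4 had relative levels of 1.05, 1.05 and 0.909 in Col-0 LL at 1 hr and of 0.821, 1.03 and 1.01 in HL. At 3.5 hr its levels were 1.12, 1.2 and 1.16 in LL and 0.364, 0.325 and 0.279 in HL. At 25 hr they were 0.817, 0.957 and 1.01 in LL and 0.289, 0.473 and 0.383 in HL. The arrays of HL and LL overlapped at 1 hr and were fully apart at both later times. The change was -0.07 ± 0.16 (log2, SE, n = 3 per group) at 1 hr (adjusted p = 0.89). It was -1.85 ± 0.16 at 3.5 hr (adjusted p = 1.8e-10). By 25 hr, the change of LHCB1.4 was -1.31 ± 0.16 (adjusted p = 3.5e-07).

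The response of LHCB1.4 differed between time-points. The log2 change at 3.5 hr minus that at 1 hr was -1.78 ± 0.23 (adjusted p = 1.5e-06), a contrast in which 2 of the 9 genes and 3.29% of all loci were called lower. For 25 hr minus 1 hr it was -1.23 ± 0.23 (adjusted p = 0.00067), where LHCB1.4 was the 1 gene of the 9 called and 1.37% of all loci were called lower. Tested against a 1.4-fold change (limma's treat), the difference of 25 hr from 1 hr lost its call (adjusted p = 0.35). The difference between 25 hr and 3.5 hr was 0.55 ± 0.23 and was not called (adjusted p = 0.14). In that last comparison 1 array decided the call: without Col-0 HL 25 hr replicate 1, which had the lowest level of its group, the difference was 0.73 with an adjusted p of 0.036.

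The direction of LHCB1.4 at 3.5 hr depends on the power of 10. Its digits allow a fall of 3.61-fold or, at the next power of 10, a rise of 2.77-fold, which is the smaller change from LL at 3.5 hr. The fall was taken because the study's lists set the power of 10 for this gene. When every group was instead set closest to Col-0 LL at 1 hr, without the lists, the fall was obtained as well. That placing was a near tie, since HL at 3.5 hr lay at -1.64 log2 from Col-0 LL at 1 hr. This is close to the 3.16-fold limit, where both readings are equally far, so that rule gives little ground for the direction. At 25 hr the digits allow a fall of 2.47-fold or a rise of 4.04-fold, and the fall is the smaller change. The size within each reading comes from the arrays, and both readings are apart from LL on all arrays.

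**Figure D2:**
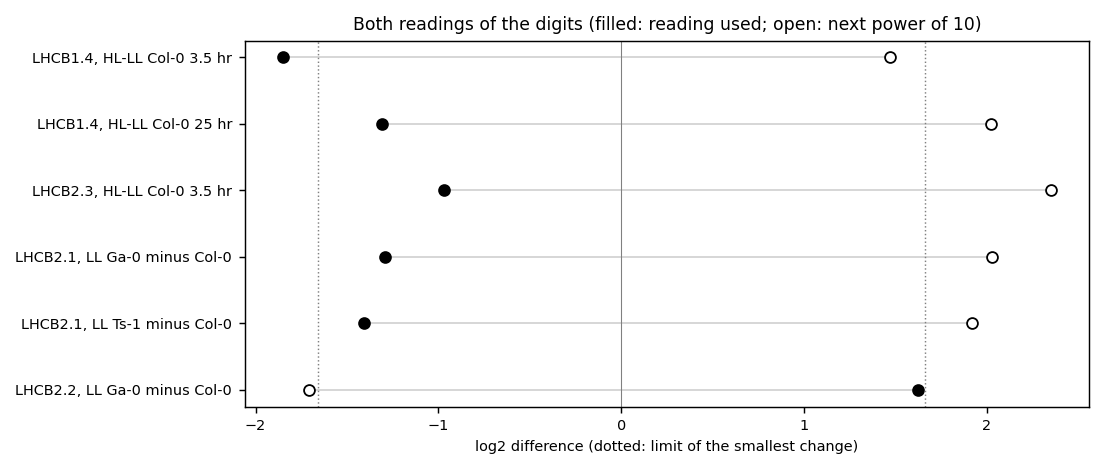
The log2 difference in 6 cases under the power of 10 used (filled) and under the next one (open), with the 3.16-fold limit of the smallest change as dotted lines. LHCB1.4 at 3.5 hr lies at -1.85 or 1.47, and LHCB2.2 in Ga-0 against Col-0 at 1.62 or -1.71, so the digits alone leave both directions possible there.

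LHCB1.5, the direct neighbour of LHCB1.4, was not called at any time. Its levels at 3.5 hr were 1.05, 1.17 and 1.11 in LL and 1.02, 0.992 and 0.894 in HL. At 25 hr they were 1.01, 0.979 and 1.11 in LL and 0.985, 0.734 and 0.881 in HL. The HL arrays lay below the LL arrays at 3.5 hr and overlapped them at 25 hr by a small margin. The log2 changes of LHCB1.5 were -0.07 ± 0.10, -0.20 ± 0.10 and -0.26 ± 0.10 over the 3 times, with adjusted p of 0.81, 0.18 and 0.069. Whether the responses of LHCB1.4 and LHCB1.5 differ was not tested.

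LHCB1.1 had levels of 0.917, 1.04 and 1.05 in LL and 0.831, 0.8 and 0.729 in HL at 1 hr in Col-0. At 3.5 hr it had 1, 1.08 and 1.04 in LL and 0.776, 0.706 and 0.711 in HL. At 25 hr it had 1.03, 0.959 and 1.07 in LL and 0.754, 0.978 and 0.875 in HL. Every HL array was below every LL array at 1 hr and 3.5 hr, and the groups overlapped at 25 hr. LHCB1.1 was lower by -0.35 ± 0.10 at 1 hr, which passed the p limit (adjusted p = 0.021) but not the fold limit. It fell at 3.5 hr by -0.51 ± 0.10 (adjusted p = 0.00014), just past the fold limit. Without Col-0 LL 3.5 hr replicate 2, the LL array with the highest level, the change was -0.48 (adjusted p = 0.0016) and within the fold limit. At 25 hr it was -0.24 ± 0.10 (adjusted p = 0.094). None of the differences of the LHCB1.1 response between time-points was called, with adjusted p from 0.25 to 0.79.

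LHCB1.2 varied widely among replicates. In Col-0 HL at 25 hr its levels were 1.18, 0.658 and 0.65, a mean of 0.831 ± 0.306 (SD, n = 3). In LL at 1 hr they were 1.06, 0.795 and 1.19. The replicate 1 array at 25 hr in HL was the highest HL array of this gene. Its log2 changes, -0.27 ± 0.17 at 1 hr, -0.12 ± 0.17 at 3.5 hr and -0.16 ± 0.17 at 25 hr, were not called, with adjusted p of 0.42, 0.73 and 0.61. LHCB1.3 had levels of 0.838, 0.812 and 0.886 in HL at 25 hr against 1.01, 1.02 and 1.07 in LL. These arrays did not overlap, and the change of -0.29 ± 0.08 passed the p limit (adjusted p = 0.016) within the fold limit. At 1 hr and 3.5 hr LHCB1.3 changed by -0.10 ± 0.08 and -0.07 ± 0.08, with adjusted p of 0.63 and 0.69.

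**Figure D3:**
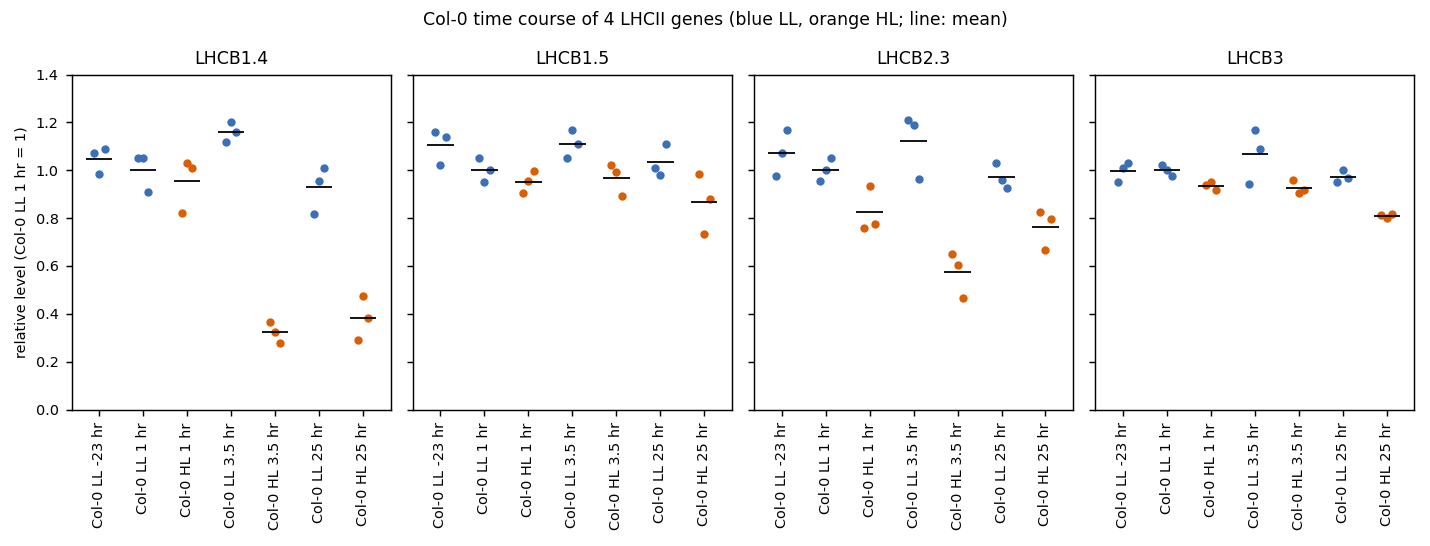
Relative level per array (points, linear axis from 0, Col-0 LL 1 hr = 1) of LHCB1.4, LHCB1.5, LHCB2.3 and LHCB3 over the 7 Col-0 groups, LL in blue and HL in orange, with group means as lines. LHCB1.4 drops to between 0.279 and 0.364 in HL at 3.5 hr while LHCB3 stays between 0.801 and 1.17 in all Col-0 arrays.

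LHCB2 forms LHCII trimers together with LHCB1, and its phosphorylated form takes part in state transitions. LHCB2.1 (AT2G05100) and LHCB2.2 (AT2G05070) lie on chromosome 2 with 5 genes between them, and LHCB2.3 (AT3G27690) stands alone. LHCB2.3 had levels of 0.953, 0.999 and 1.05 in LL and 0.759, 0.935 and 0.777 in HL at 1 hr in Col-0. At 3.5 hr it had 1.21, 1.19 and 0.965 in LL and 0.65, 0.602 and 0.467 in HL. At 25 hr it had 1.03, 0.96 and 0.925 in LL and 0.826, 0.667 and 0.795 in HL. All HL arrays were below all LL arrays at each of the 3 times, with the widest gap at 3.5 hr.

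LHCB2.3 changed by -0.97 ± 0.12 on the log2 scale at 3.5 hr (adjusted p = 2e-07). Its changes of -0.29 ± 0.12 at 1 hr and -0.35 ± 0.12 at 25 hr were not called, with adjusted p of 0.18 and, within the fold limit, 0.04. The 3.5 hr change minus the 1 hr change was -0.69 ± 0.17 (adjusted p = 0.007). The 25 hr change minus the 3.5 hr change was 0.62 ± 0.17 (adjusted p = 0.017), and LHCB2.3 was the 1 gene of the 9 called in that contrast, where 2.85% of all loci were called higher. This last difference lost its call without Col-0 HL 3.5 hr replicate 3 (0.48, adjusted p = 0.075), without Col-0 LL 3.5 hr replicate 1 and without Col-0 HL 25 hr replicate 1 (both 0.56, adjusted p = 0.051). Under limma's treat against a 1.4-fold change both differences of LHCB2.3 lost their calls, as did the fall of LHCB1.1 at 3.5 hr (adjusted p = 1 for each).

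LHCB2.2 had levels of 0.897, 1.08 and 0.944 in LL and 0.796, 0.755 and 0.752 in HL at 3.5 hr in Col-0. At 25 hr it had 1.03, 0.917 and 0.932 in LL and 0.688, 0.736 and 0.748 in HL. The arrays did not overlap at either time. The changes of -0.34 ± 0.12 (adjusted p = 0.045) and -0.41 ± 0.12 (adjusted p = 0.018) passed the p limit within the fold limit. At 1 hr the change of LHCB2.2 was -0.20 ± 0.12 (adjusted p = 0.41). LHCB2.1 had levels of 0.972, 0.874 and 1.12 in LL and 0.76, 0.844 and 0.795 in HL at 25 hr, a change of -0.30 ± 0.12 (adjusted p = 0.10). Its changes at 1 hr and 3.5 hr were -0.09 ± 0.12 and -0.21 ± 0.12, with adjusted p of 0.79 and 0.28.

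LHCB3 (AT5G54270) takes part in some of the trimers. It had the least scatter at 25 hr, with levels of 0.952, 1 and 0.967 in LL and 0.811, 0.801 and 0.818 in HL. All HL arrays were below all LL arrays, and the change of -0.26 ± 0.07 had an adjusted p of 0.0062 and lay within the fold limit. At 3.5 hr LHCB3 had 0.941, 1.17 and 1.09 in LL and 0.959, 0.903 and 0.917 in HL, which overlapped, with a change of -0.20 ± 0.07 (adjusted p = 0.039). At 1 hr the change was -0.10 ± 0.07 (adjusted p = 0.52).

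Seen as a list, the LHCII genes in Col-0 lay below LL at all 3 times. All 9 log2 changes were below 0 at 1 hr, with a median of -0.10 against -0.019 over all loci, of which 56.5% were below 0. All 9 were below 0 at 3.5 hr, with a median of -0.21 against -0.009 and 52.4%. In each count at 3.5 hr given here, LHCB1.4 is lower because the study's lists set its power of 10. By the smallest change, the rule of the other members, its change was 1.47. All 9 were below 0 at 25 hr, with a median of -0.29 against -0.013 and 53.9%. The smallest of these changes were within their standard errors, and members of a cluster may share probes, so the 9 are not independent. HL arrays were fully below LL arrays for 4 of 9 genes at 1 hr against 12% of all loci, for 5 of 9 at 3.5 hr against 17.7%, and for 6 of 9 at 25 hr against 17.8%. Lower at an adjusted p below 0.05 without the fold limit were 1 of 9 at 1 hr (3.16% of all loci), 5 of 9 at 3.5 hr (10.1%) and 5 of 9 at 25 hr (8.6%).

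**Figure D4:**
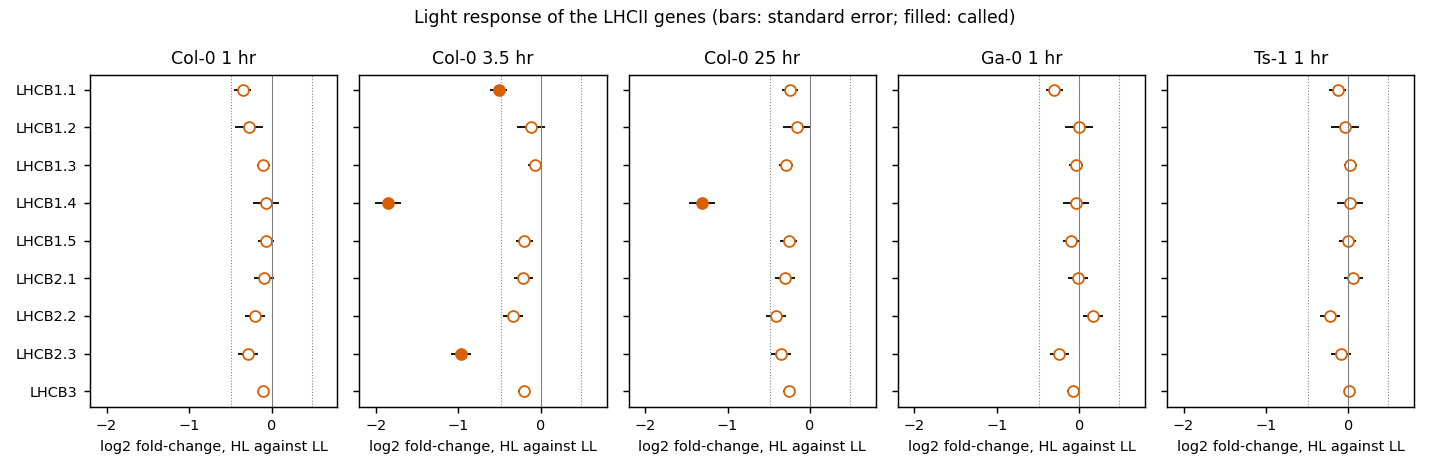
Log2 fold-change of HL against LL for the 9 LHCII genes in the 5 comparisons, with standard errors as bars, called changes filled, 0 as a solid line and the 1.4-fold limit as dotted lines. The called genes are LHCB1.1, LHCB1.4 and LHCB2.3 at 3.5 hr and LHCB1.4 at 25 hr, while all values in Ga-0 and Ts-1 lie between -0.30 and 0.17.

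Ga-0 and Ts-1 were measured at 1 hr. In Ga-0, 0 of 9 LHCII genes were called in HL against LL in limma, where 2.25% of all loci were called and 0.888% fell. In Ts-1 0 of 9 were called, where 2.42% of all loci were called and 0.866% fell. At an unadjusted p below 0.05, for which no share of all loci was computed, 1 gene passed in Ga-0 (LHCB1.1) and 0 in Ts-1. The median change was -0.04 in Ga-0 (all loci -0.002). It was -0.01 for the 9 genes in Ts-1 (all loci -0.004). The HL arrays of 0 of 9 genes were fully below or fully above the LL arrays, which held for 8.84% and 7.86% of all loci in Ga-0 and for 9.7% and 9.36% in Ts-1. LHCB1.1 in Ga-0 had levels of 1.07, 1.42 and 1.3 in LL and 1.09, 0.919 and 1.06 in HL. These groups overlapped by a small margin, and the change was -0.30 ± 0.10 (adjusted p = 0.07). Between accessions, the response at 1 hr was called as different for 0 of 9 genes in limma, with adjusted p from 0.51 to 0.99, where 0.14% (Ga-0 minus Col-0), 0.55% (Ts-1 minus Col-0) and 0.244% (Ga-0 minus Ts-1) of all loci were called. At an unadjusted p below 0.05, LHCB2.2 passed in the contrasts of Ga-0 with Col-0 and with Ts-1. For LHCB1.1 the difference was 0.05 ± 0.14 for Ga-0 against Col-0 and 0.22 ± 0.14 for Ts-1 against Col-0.

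Without any irradiance increase, the values of LHCB2.1 and LHCB2.2 differed between accessions. Whether their probes are specific to each gene, or match the RNA of all accessions equally well, was not tested. In LL at 1 hr, the Col-0 arrays had LHCB2.1 levels of 0.829, 1.08 and 1.11. The Ga-0 arrays had 0.336, 0.44 and 0.46, and those of Ts-1 had 0.373, 0.351 and 0.41. The Ga-0 and Ts-1 arrays lay far below those of Col-0 and overlapped each other. Against Col-0, the log2 difference of LHCB2.1 for Ga-0 was -1.29 ± 0.12 (adjusted p = 1.5e-09). The same difference for Ts-1 was -1.41 ± 0.12 (adjusted p = 2.3e-10), and Ga-0 minus Ts-1 was 0.11 ± 0.12 (adjusted p = 0.64). In HL the levels were 0.452, 0.453 and 0.326 in Ga-0 and 0.4, 0.357 and 0.429 in Ts-1. This placing takes the smaller difference, 2.45-fold and 2.65-fold lower, where the digits also allow 4.08-fold and 3.77-fold higher. Of all loci, 3.32% were called lower in Ga-0 LL than in Col-0 LL, and 6.45% in either direction. For Ts-1 LL these shares were 3.72% and 7.47%.

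LHCB2.2 in LL differed between Ga-0 and both other accessions, but the direction cannot be given. Its levels were 1.01, 0.972 and 1.01 in Col-0 and 0.939, 0.832 and 1.04 in Ts-1, which overlapped. In Ga-0 they were placed at 2.48, 3.9 and 2.99 in LL and 2.84, 3.63 and 4.01 in HL. The LL mean of Ga-0 fits 3.07-fold higher or 3.26-fold lower than Col-0, so the readings are about equally far from 1. The difference from Col-0 passed the test under both readings, at 1.62 ± 0.12 with an adjusted p of 1e-11 as placed and at -1.71 with an adjusted p of 2.9e-12 when every group was set closest to the circular mean of all arrays. Against Ts-1 the difference was 1.72 ± 0.12 (adjusted p = 1.8e-12) or -1.60, where 5.44% of all loci were called in either direction. Within Ga-0, HL differed from LL by 0.17 ± 0.12 (adjusted p = 0.55) where HL and LL were read at the same power of 10.

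The other 7 LHCII genes were not called between accessions in LL. LHCB1.1 was nearest to the limit, at 0.33 ± 0.10 above Col-0 in Ga-0 (adjusted p = 0.016, within the fold limit), with all Ga-0 arrays above all Col-0 arrays. LHCB3 differed by 0.02 ± 0.07 in Ga-0 and -0.03 ± 0.07 in Ts-1. Whether the probes of the LHCII genes, LHCB2.1 and LHCB2.2 included, match the RNA of Ga-0 and Ts-1 as well as that of Col-0 was not tested.

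In Col-0 kept in LL, 0 of 9 LHCII genes were called in limma in each of 4 contrasts. The 9 differences lay between -0.35 and 0.21 for 3.5 hr minus 1 hr, where 7.41% of all loci were called, and between -0.16 and 0.04 for 25 hr minus 1 hr (0.0252%). They lay between -0.11 and 0.14 for -23 hr minus 1 hr (0.284%) and between -0.18 and 0.07 for 25 hr minus -23 hr (0.604%). At an unadjusted p below 0.05, LHCB1.2 alone passed, lower at 3.5 hr than at 1 hr by -0.35 ± 0.17 (adjusted p = 0.15). Without Col-0 LL 1 hr replicate 2, the change of LHCB1.2 was -0.51 with an adjusted p of 0.038. In Col-0 kept in HL, LHCB1.4 fell between 1 hr and 3.5 hr by -1.57 ± 0.16 (adjusted p = 2.2e-09) and LHCB2.3 by -0.53 ± 0.12 (adjusted p = 0.00083), where 5.71% of all loci fell. Between 1 hr and 25 hr LHCB1.4 alone was called, at -1.34 ± 0.16 (adjusted p = 3.2e-07), where 1.56% of all loci fell. The call of LHCB2.3 over time in HL was lost within the fold limit without Col-0 HL 1 hr replicate 2 (-0.44) and without Col-0 HL 3.5 hr replicate 3 (-0.39).

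Over all 11 groups the span from the lowest to the highest group mean was 1.22-fold for LHCB1.3, 1.29-fold for LHCB1.5, 1.31-fold for LHCB3 and 1.38-fold for LHCB1.2. It was 1.72-fold for LHCB1.1, 1.96-fold for LHCB2.3, 2.65-fold for LHCB2.1 and 3.61-fold for LHCB1.4, and 4.78-fold for LHCB2.2 as placed in Ga-0 or 3.26-fold with Ga-0 at the next lower power of 10. The lowest group was Col-0 HL at 3.5 hr for LHCB1.1, LHCB1.2, LHCB1.4 and LHCB2.3 and Col-0 HL at 25 hr for LHCB1.3, LHCB1.5 and LHCB3. LHCB2.1 was lowest in Ts-1 LL. The lowest group of LHCB2.2 was Col-0 HL at 25 hr as placed and Ga-0 LL at the other reading. Of the 10 steps between neighbouring groups in the order of mean log2 levels, all 10 were smaller than the larger of the 2 group SDs for LHCB1.2, LHCB1.3 and LHCB1.5, 9 were for LHCB3, 8 for LHCB1.4, LHCB2.2 and LHCB2.3, and 7 for LHCB1.1 and LHCB2.1.

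The 11 group means of LHCB1.4 and LHCB2.3 had a Pearson r of 0.88, those of LHCB1.1 and LHCB2.3 of 0.87, and those of LHCB1.5 and LHCB3 of 0.93. LHCB2.1 had r between -0.51 and 0.31 with the 7 genes other than LHCB2.2, and with LHCB2.2 an r of -0.52 as placed in Ga-0 or 0.62 at the other reading. The points share arrays, and LHCB2.1 and LHCB2.2 are set apart by accession. Among 10869 loci whose group means spanned at least 1.4-fold, the locus most like LHCB1.4 was PME44 (r = 0.968), a pectin methylesterase gene by its name, and the locus most like LHCB2.3 was sks4 (r = 0.977). The nearest loci were AT3G06330 for LHCB1.1 (r = 0.946), BGLU40 for LHCB1.2 (0.955), AT3G05730 for LHCB1.3 (0.934), AT4G38690 for LHCB1.5 (0.903) and AT3G45900 for LHCB3 (0.917). Every r of a nearest locus is the highest among 10869 loci over 11 points. Whether it exceeds what chance gives was not tested. For LHCB1.2, LHCB1.3 and LHCB1.5 the groups also differed little against their SDs, so no shared regulation can be read from these loci. AT5G36930 (0.995) was nearest to LHCB2.1. AT1G63350 (0.991) was nearest to LHCB2.2 as placed, and CXIP4 (0.983) with Ga-0 at the next lower power of 10. The 5 loci nearest to the mean of the members were CIPK15 (0.944), CLE42 (0.934), AT1G44000 (0.929), EXO70A1 (0.929) and AT5G01090 (0.922). With LHCB2.2 left out of that mean they were AGP21 (0.974), PIN4 (0.959), AT1G30250 (0.955), AT5G44530 (0.95) and UGT76C2 (0.948), and 0 loci were in both lists of 5.

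The genes around LHCII were compared from lists of related genes. Of 6 minor antenna genes of photosystem II, LHCB4.2 fell at 3.5 hr (log2 change of -0.98, adjusted p = 1e-07) and 25 hr (-0.51, adjusted p = 0.0021), and LHCB4.3 rose at 25 hr (0.72, adjusted p = 4.6e-07). LHCB7, a relative of the antenna proteins, rose at 1 hr (0.55) and 3.5 hr (0.73) in Col-0 and at 1 hr in Ts-1 (0.78). LHCB4.1, LHCB5 and LHCB6 were not called in any of the 5 comparisons. Of the 6 antenna genes of photosystem I, LHCA1 fell at 3.5 hr (-0.50, adjusted p = 0.0011) and the other 5 were not called. All 6 were below 0 at 3.5 hr with a median of -0.27, where 52.4% of all loci were below 0, and the HL arrays of all 6 lay below the LL arrays, as for 17.7% of all loci.

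Of the 5 genes for delivery of LHC proteins to the thylakoid, CPSRP43, a chloroplast signal recognition particle subunit that binds LHC proteins, fell at 3.5 hr (-0.57, adjusted p = 2.4e-05). The genes of the kinase STN7, which phosphorylates LHCII, and of the phosphatase TAP38, which acts on phosphorylated LHCII, were not called. In the list of 5 genes for chlorophyll b, CAO, the oxygenase that makes chlorophyll b, fell at 1 hr (-0.56), 3.5 hr (-0.85) and 25 hr (-0.69) in Col-0. NYC1, a reductase in the breakdown of chlorophyll b, rose at 3.5 hr (0.77, adjusted p = 1e-06).

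Of 9 genes known for regulating LHCB transcription, GLK2, a transcription factor of chloroplast development, fell in all 5 comparisons. Its log2 changes in Col-0 were -0.88, -0.73 and -1.49 at 1 hr, 3.5 hr and 25 hr, and those of Ts-1 and Ga-0 at 1 hr were -0.91 and -0.78. Its relative GLK1 fell at 25 hr (-0.74), as did the GATA factor GNC (-0.89). The GATA factor CGA1 rose at 3.5 hr (1.44) and at 1 hr in Ts-1 (0.51) and fell at 25 hr (-1.06). The clock gene LHY fell at 3.5 hr (-0.68), and HY5, a light signalling factor, rose at 3.5 hr (0.61) and at 1 hr in Ts-1 (0.76). Called lower in this list in Col-0 were 1 of 9 genes at 1 hr (0.92% of all loci), 2 at 3.5 hr (3.78%) and 4 at 25 hr (2.4%). Called higher were 2 of 9 at 3.5 hr (3.94% of all loci) and 0 at 1 hr and 25 hr. ELIP1 and ELIP2, early light-induced proteins of the thylakoid, rose in all 5 comparisons as placed by the study's lists. In Col-0 the rises were 1.57, 3.27 and 2.33 for ELIP1 and 1.56, 2.35 and 2.47 for ELIP2. At the next power of 10 the digits also fit -0.05 for ELIP1 and -0.97 for ELIP2 at 3.5 hr. At 25 hr they also fit -0.99 and -0.85, and ELIP2 in Ts-1 fits 1.92 or -1.4. The smaller changes there are not rises, so those rises are no independent check of the light treatment. For GLK2, CGA1, ELIP1 and ELIP2 the study's lists set the power of 10.

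**Figure D5:**
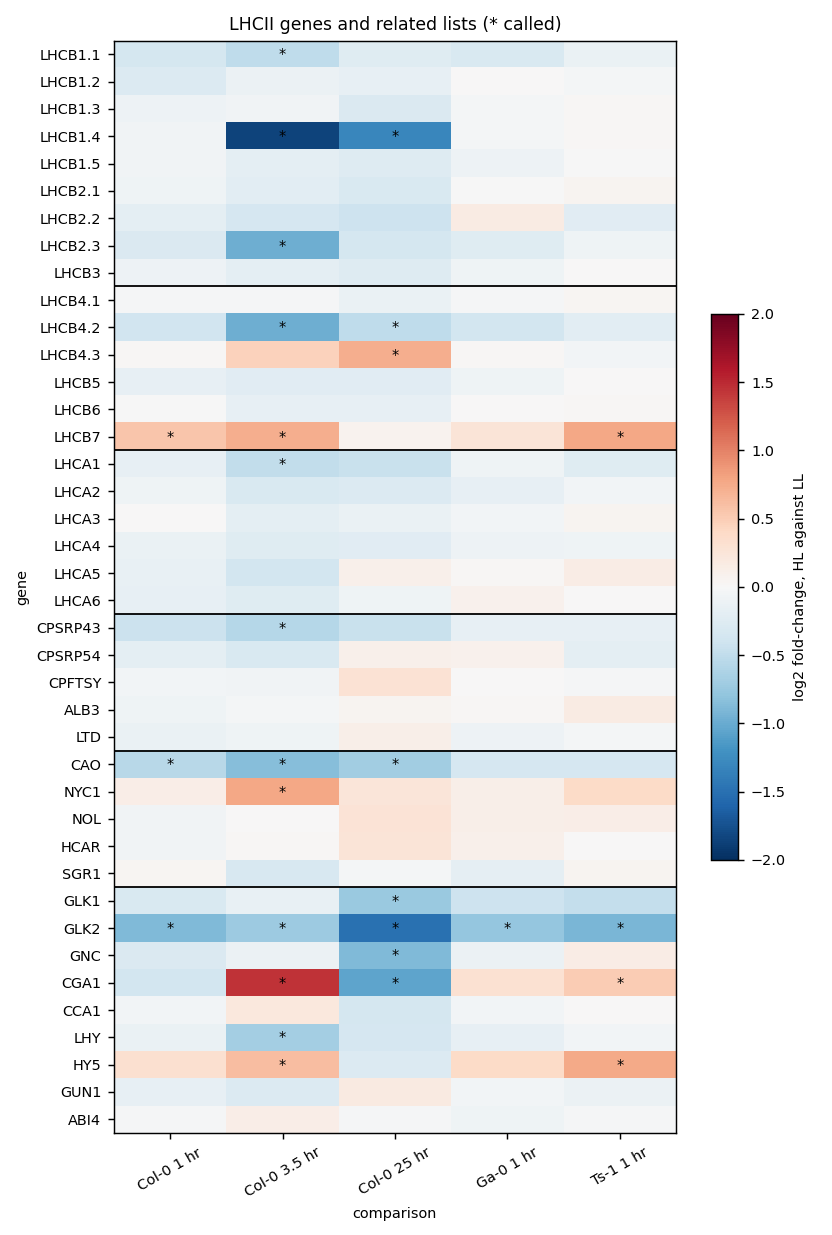
Log2 fold-change of HL against LL (colour, from -2 to 2) for the 9 LHCII genes at the top and 5 related lists below them, in the 5 comparisons, with called changes starred. LHCB1.4, LHCB2.3, LHCB4.2 and CAO are all called lower at 3.5 hr, and no LHCII gene is called higher. The direction of LHCB1.4 at 3.5 hr was set by the study's lists.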

How the data were processed

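Rosette RNA was hybridised to Affymetrix AraGene 1.1ST arrays. The authors summarized probes per locus by RMA (background correction, quantile normalization) with a custom annotation and deposited values that, in their table, are the digits of linear RMA signal without the decimal separator, of up to 10 digits, with 1 of 918258 values keeping its point. The unit of these deposited scores is thus a signal known up to a power of 10.

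Digits were placed as described above, and the change listed in the study's tables set the power of 10 for 520 loci (1810 of 1812 listed changes were met within 0.0001 on the log10 scale). Comparisons of these loci that were not listed were placed closest to the Col-0 change at 1 hr. Log2 values of all 33 arrays entered a limma (3.58.1, R 4.3.3) model with 1 mean per group and no block, with p adjusted by Benjamini-Hochberg over 27826 loci within each contrast. The fit had 22 residual degrees of freedom. The median residual SD was 0.111 and array medians lay between -0.044 and 0.036 (log2). Precision is limited by the number of arrays, and p-values measure the spread between pooled samples, 3 rosettes each. Placing by the smallest change and the fit were also run on simulated data, without the study's lists, and the outcome is not given here. By construction that rule turns changes beyond 3.16-fold to the other direction. The simulation does not bear on the placing by the lists. Symbols and neighbours came from the RefSeq TAIR10.1 table (27241 of 27826 loci found); promoter motifs, protein sequences and coordinates were not used here.

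The members were taken by locus number, but this family and the lists were chosen with earlier results of these data known. All members were named, and list genes where called in at least 1 of the 5 light comparisons. LHCB4.1, LHCB5, LHCB6, STN7, TAP38 and PSBS are named beside them as not called. By Pearson r over 11 group means, the nearest locus of each member and the 5 nearest to their mean were also named. Alternatives covered the placing of the digits, the arrays fitted, a block, centring, robust variance, treat, the fold limit and each replicate left out. Placing used Python 3.11.15.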

Additional observations from a re-analysis of the deposited data

Results flagged for a closer look

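The response of 2 LHCII genes to the irradiance increase differed between Col-0 time-points by limma's test of the difference itself. LHCB1.4 responded more strongly downwards at 3.5 hr than at 1 hr (log2 difference of -1.78) and at 25 hr than at 1 hr (-1.23). LHCB2.3 responded more strongly downwards at 3.5 hr than at 1 hr (-0.69), and less so at 25 hr than at 3.5 hr (0.62). Tested against a 1.4-fold change (limma's treat), the -1.78 of LHCB1.4 kept its call, and the -1.23 of LHCB1.4 (adjusted p = 0.35) and both differences of LHCB2.3 (adjusted p = 1) lost theirs. With limits read on the log2 scale the same 3 were lost. The power of 10 of LHCB1.4 at 3.5 hr came from the study's lists.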

How the results depend on the processing

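Of the single-gene results under all alternatives, 2993 kept their direction and their side of the limits or were called in neither setting, 20 lost a call, 2 gained one and 9 reversed. Most of the 2993 were called in neither setting, where direction was not compared. That count therefore does not measure how stable the calls were. With fold limits read on the log2 scale (a log2 change of 1.4 or more), the LHCII genes called went from 3 to 1 at 3.5 hr, from 1 to 0 at 25 hr, from 2 to 1 genes over time in HL and from 2 to 1 in the responses between time-points. Under treat against a 1.4-fold change, the last 2 counts were also 1, the count at 3.5 hr was 2 and that at 25 hr stayed 1. LHCB1.1 at 3.5 hr (-0.51, adjusted p = 1), LHCB1.4 for 25 hr against 1 hr (-1.23, adjusted p = 0.35) and LHCB2.3 for 3.5 hr against 1 hr, 25 hr against 3.5 hr and over time in HL (adjusted p = 1) lost their calls there. With every group set closest to Col-0 LL at 1 hr, 1 gene was called in Ga-0 and 1 in the responses between accessions instead of 0. That gene was LHCB2.2, at -3.15 in Ga-0, -2.94 for Ga-0 against Col-0 and -2.93 for Ga-0 against Ts-1, since Ga-0 HL and LL then took different powers of 10. With the circular mean, LHCB2.2 in LL was -1.71 against Col-0 and -1.60 against Ts-1. With the smallest change and no lists, LHCB1.4 turned to 1.47 at 3.5 hr, 1.54 for 3.5 hr against 1 hr, -2.78 for 25 hr against 3.5 hr and 1.75 in HL from 1 hr to 3.5 hr. Leaving out each replicate in turn gave 0 to 1 genes over time in LL (1, LHCB1.2, without Col-0 LL 1 hr replicate 2), 1 to 2 over time in HL (1 without Col-0 HL 1 hr replicate 2 or Col-0 HL 3.5 hr replicate 3) and 2 to 3 at 3.5 hr (2 without Col-0 LL 3.5 hr replicate 2). No sequencing depth applies to arrays, and signal over background could not be judged from digits.

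No label says that a replicate number marks a shared batch or day. The main fit therefore used no pairing. Residuals of arrays with the same number correlated between -0.104 and 0.251. In none of the 5 light comparisons were all 3 pairs above 0.1, which is an arbitrary mark and does not decide on pairing. As a hint from the data, not the design, 23 of 30 arrays correlated best with the array of their own number. With the replicate block, LHCB1.4 stayed at -1.85 at 3.5 hr (adjusted p = 5.1e-10), 3 LHCII genes were called at 3.5 hr and 1 at 25 hr, and 2150 of all loci were called at 3.5 hr, as without it. The block changed no call of an LHCII gene.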
